A study of Canis lupus familiaris with 15 samples.

Results

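Osteoclast-rich canine osteosarcomas were compared with osteoclast-poor ones. Each of 15 primary tumors was given a score, the mean log2 signal of ACP5 and CTSK, and the 5 tumors with the highest score formed the osteoclast-rich group and the 5 with the lowest score the osteoclast-poor group, so 10 of the 15 tumors were compared. ACP5 encodes tartrate-resistant acid phosphatase, the classical histochemical marker of osteoclasts, and CTSK encodes cathepsin K, the collagen-degrading protease that osteoclasts release onto bone. Both groups were therefore chosen on measured values. The levels of the 2 scoring genes in these groups are given as a description without a test. For every other gene a limma p-value compares the 2 groups, which were cut from the same arrays. It does not use the order of the scores within a group.

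Osteoclasts are large multinucleate cells that form by fusion of precursors of the monocyte lineage under the cytokines CSF1 and RANKL. They seal off a patch of bone, pump protons into it with a vacuolar ATPase in their ruffled border to dissolve mineral, and secrete proteases that cut the exposed collagen. In osteosarcoma, a tumor of bone-forming cells, they resorb the host bone around the growing tumor, and in the giant cell subtype osteoclast-like giant cells lie among the tumor cells.

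The arrays came from pet dogs with appendicular osteosarcoma, in 2 cohorts by disease free interval (DFI): 8 dogs under 100 days (DFI < 100 cohort) and 7 dogs over 300 days (DFI > 300 cohort). Each tumor was snap frozen at limb amputation, before any chemotherapy, and hybridised to 1 Affymetrix Canine 2.0 array, which makes each dog 1 replicate. All values below are log2 PLIER signals, so a difference of 1 is a doubling. The osteoclast-rich group held 3 dogs of the DFI < 100 cohort (a Doberman and a Greyhound of 8 years and a mixed breed dog of 9 years) and 2 of the DFI > 300 cohort (mixed breed dogs of 10.4 and 13.4 years). The osteoclast-poor group held 3 dogs of the DFI < 100 cohort (a Greyhound of 4.4 years, a Labrador Ret. of 10.2 years and a Golden Ret. of 10.8 years) and 2 of the DFI > 300 cohort (a Greyhound of 7.1 years and a mixed breed dog of 12.4 years). Intermediate scores belonged to 2 dogs of the DFI < 100 cohort (Rottweiler, 5 years, and Greyhound, 7 years). The other 3 were of the DFI > 300 cohort (Golden Ret., 8 years, Rottweiler, 10.4 years, and mixed breed, 11.5 years). Whole tumor pieces were profiled, so fewer osteoclasts and less RNA per osteoclast cannot be told apart. The arrays were run in 2 batches, and since the batch of each array is not given in the sources used here, no within-batch value could be computed.

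ACP5 was 13.05, 12.77, 12.68, 12.34 and 12.31 in the osteoclast-rich tumors (dogs 208911, 204714, 153599, 190030 and 180119) and 11.07, 8.85, 6.96, 5.28 and 1.01 in the osteoclast-poor tumors (dogs 212759, 184844, 193231, 208756 and 208513). CTSK was 13.55, 13.41, 13.49, 13.45 and 13.38 in the same osteoclast-rich tumors and 12.71, 11.85, 11.55, 10.60 and 9.83 in the same osteoclast-poor tumors. The score averaged 13.04 ± 0.18 (SD, n = 5) in the osteoclast-rich group, 12.33 ± 0.30 (SD, n = 5) in the tumors between and 8.97 ± 2.46 (SD, n = 5) in the osteoclast-poor group. The spread thus lay almost wholly on the poor side, where the scores ran from 5.42 to 11.89. At the upper limit the last tumor taken in had a score of 12.85 and the first left out 12.72, and at the lower limit the last taken in had 11.89 and the first left out 11.95. Neither limit fell in a gap, and the osteoclast-poor tumor of dog 212759 was close to the intermediate tumors. Over 15 tumors ACP5 and CTSK had a Pearson correlation of 0.99, and either gene alone chose the same 10 tumors.

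**Figure D1:**
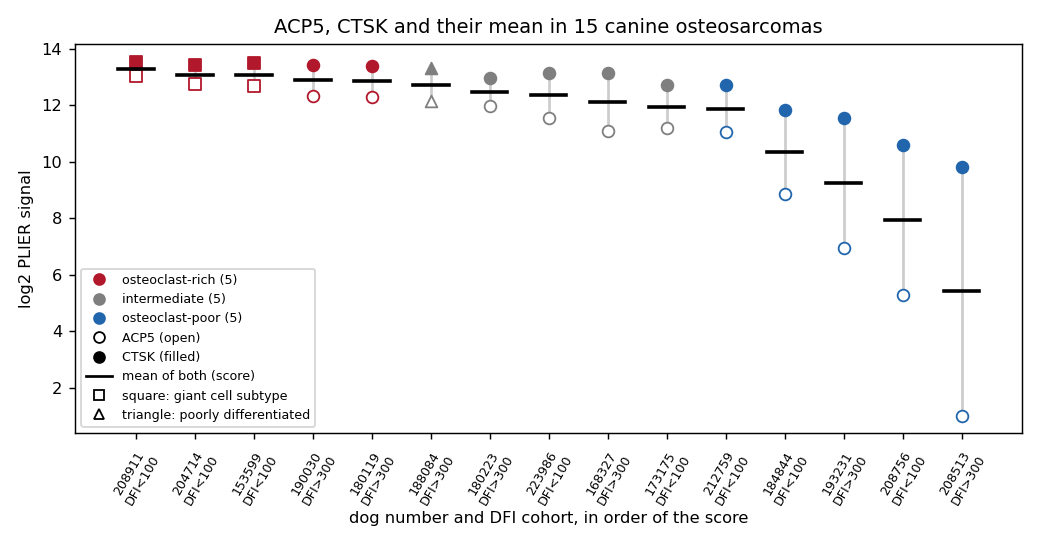
Log2 PLIER signal of ACP5 (open symbols) and CTSK (filled symbols) and their mean (black line) in the 15 tumors, ordered by the mean. The 3 giant cell tumors (squares) have the 3 highest scores, and the decline is steep only in the last 4 tumors, where ACP5 falls from 8.85 to 1.01.

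The clinical make-up of the groups was not even. All 3 giant cell osteosarcomas of the series were in the osteoclast-rich group, at the 3 highest scores, and the other 2 osteoclast-rich tumors and all 5 osteoclast-poor tumors were osteoblastic. The osteoclast-rich group had 4 spayed females and 1 castrated male, and the osteoclast-poor group 1 spayed female and 4 castrated males. The humerus was the site of 2 osteoclast-rich and 4 osteoclast-poor tumors, and both tibial tumors of the series were osteoclast-rich. Subtype, sex and bone were taken from the study's description of the dogs and were not tested against the score. Age averaged 9.76 ± 2.26 years in the osteoclast-rich and 8.98 ± 3.20 years in the osteoclast-poor dogs (SD, n = 5 each). The difference in means was 0.78 years (2-sided exact permutation test, p = 0.667), and 5 dogs a group cannot show that ages were alike. The score itself averaged 11.75 ± 1.81 (SD, n = 8) in the DFI < 100 cohort and 11.11 ± 2.81 (SD, n = 7) in the DFI > 300 cohort, a difference of 0.64 (2-sided exact permutation test over all 6435 splits, p = 0.618). Without dog 208513, the lowest score, that difference was -0.31. A log2 ratio of 3′ to 5′ control probesets, a measure of RNA degradation, was 1.10 to 2.88 in osteoclast-rich and 1.40 to 2.47 in osteoclast-poor tumors (2-sided exact permutation test, p = 0.802).

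Of 42856 probesets, 0.383% differed at an adjusted p below 0.05. At the level of genes, with the brightest probeset of each of 15113 named genes, 61 were higher in osteoclast-rich tumors (0.404%) and 12 were lower (0.0794%). At an unadjusted p below 0.05, 6.33% of genes were higher and 6.7% lower. The highest value of one group lay below the lowest of the other for 2.11% of genes on the higher side and for 1.54% on the lower. Among the 6446 genes whose mean signal was above the 95th percentile of the array's reporter controls, at 6.79, these shares were 0.605% and 0.0931% by adjusted p, 8.24% and 9.45% by unadjusted p, and 2.67% and 2.36% by groups that did not overlap. Genes below that level are called near background here, and 28 of the 73 genes that passed the test were among them. All 73 had groups that did not overlap.

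The 73 calls depended on the tumors used. Of them, 15 kept an adjusted p below 0.05 with each of the 10 tumors left out in turn. The number of genes called higher fell from 61 to 13 without dog 180119, 18 without 208911, 20 without 193231, 22 without 153599, 26 without 190030, 31 without 204714, 33 without 208756, 35 without 184844 and 40 without 208513, and was 60 without 212759. With sex as a covariate none of the 73 genes kept an adjusted p below 0.05, although all 73 kept their direction and an unadjusted p below 0.05. Without the 3 giant cell tumors, with 2 osteoclast-rich tumors left, 1 of the 73 kept its adjusted p and again all 73 kept their direction and an unadjusted p below 0.05. The same 73 genes had the same direction within the DFI < 100 cohort (3 against 3 tumors) and within the DFI > 300 cohort (2 against 2). Since the groups of all 73 did not overlap, no subset of these tumors could change the direction, so its agreement in subsets is no separate support.

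**Figure D2:**
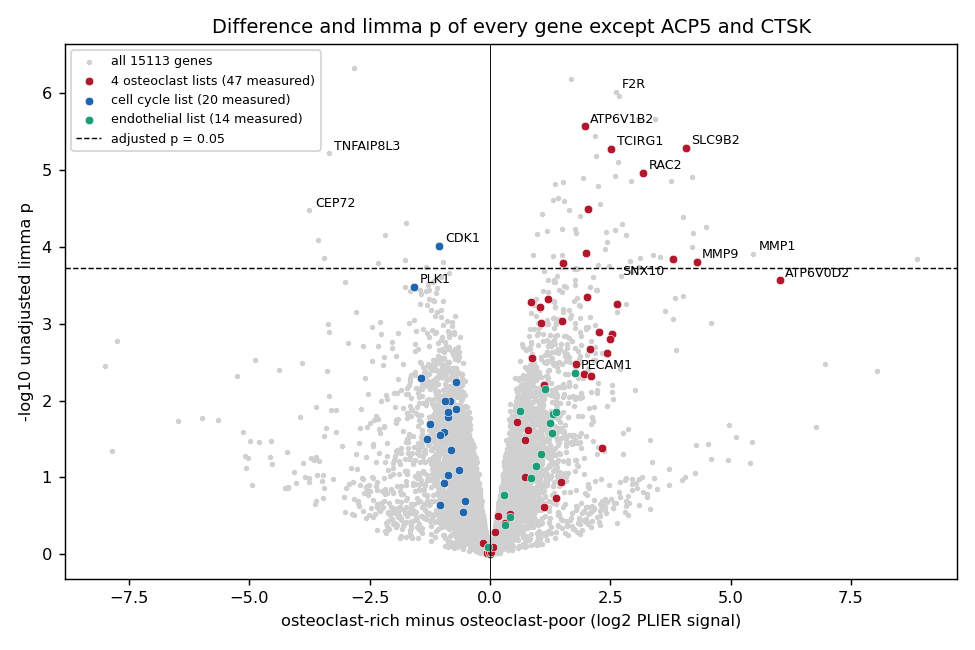
Difference between osteoclast-rich and osteoclast-poor tumors (x axis, log2 PLIER signal, 5 tumors a group) against the -log10 of the unadjusted limma p (y axis) for each gene except ACP5 and CTSK, with the level of adjusted p = 0.05 as a dashed line. Of 47 members of the osteoclast lists (red) 44 lie on the right, members of the cell cycle list (blue) are all on the left, and 9 red points are above the line.

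Every measured gene of acid secretion was higher where ACP5 and CTSK were higher. All 15 measured members were higher in osteoclast-rich tumors at an unadjusted p below 0.05, 14 had groups that did not overlap, and 6 passed the adjusted test. The same shares over all genes were 6.33%, 2.11% and 0.404%. The median difference was 1.97 against -0.03 over all genes. TCIRG1, the a3 subunit that anchors the proton pump in the ruffled border, was 11.64, 11.71, 11.83, 10.76 and 11.64 in osteoclast-rich tumors (in the order given above) and 9.82, 9.09, 8.77, 8.65 and 8.64 in osteoclast-poor tumors. The 2 groups were apart, with the osteoblastic tumor of dog 190030 the lowest of the rich. TCIRG1 rose 5.74-fold (log2 difference 2.52 ± 0.29 SE, adjusted p = 0.0115). ATP6V1B2, the B2 subunit of the same pump's catalytic head, rose by 1.97 ± 0.21 on the log2 scale (adjusted p = 0.00988). SLC9B2, a sodium/proton exchanger of the osteoclast, rose by 4.07 ± 0.46 (adjusted p = 0.0115). SLC9B2 was near background, with a mean of 2.91 ± 1.08 (SD) in the osteoclast-poor tumors, and its difference was 2.53 with 16 added to each signal before the log.

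SNX10, a sorting nexin needed for the osteoclast's acid-secreting membrane and mutated in human osteopetrosis, was 10.76, 10.18, 10.24, 9.81 and 10.44 in osteoclast-rich and 8.19, 7.72, 6.02, 6.13 and 4.34 in osteoclast-poor tumors. The order of the osteoclast-poor tumors followed their score except for dogs 193231 and 208756, which were close. SNX10 rose by 3.81 ± 0.64 on the log2 scale (adjusted p = 0.0452). SLC4A2, the chloride/bicarbonate exchanger that balances the alkali left by proton secretion, rose by 1.99 ± 0.33 (adjusted p = 0.0433), and ATP6AP1, an accessory subunit of the pump, by 1.52 ± 0.26 (adjusted p = 0.0472). The calls of TCIRG1, ATP6V1B2 and SLC9B2 held with any 1 tumor left out. Those of SNX10 and ATP6AP1 were lost in 8 of these 10 runs and that of SLC4A2 in 9. CA2, the carbonic anhydrase that supplies the protons, had means of 10.23 ± 1.14 and 7.70 ± 0.84 (SD) with an adjusted p of 0.115. CLCN7, the chloride/proton exchanger of the same membrane, was near background, with means of 6.87 ± 0.17 and 5.81 ± 0.46 and an adjusted p of 0.101. OSTM1, the partner protein of that exchanger, had means of 8.09 ± 0.37 and 6.89 ± 0.35 and an adjusted p of 0.0761.

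Of the genes for fusion and the cell surface, a list that shares ATP6V0D2 with acid secretion, 11 were measured. None passed the adjusted test by its brightest probeset. At an unadjusted p below 0.05, 6 were higher (6.33% of all genes), and the median difference was 1.47. ATP6V0D2, the d2 subunit of the proton pump that is also needed for fusion of precursors, was 11.22, 11.02, 11.08, 10.49 and 11.34 in osteoclast-rich and 8.15, 6.83, 4.97, 4.01 and 1.09 in osteoclast-poor tumors. Its order among the osteoclast-poor tumors was that of the score. The difference of 6.02 ± 1.10 (SE) was the largest on the log2 scale among genes above the reporter level, and missed the adjusted threshold (adjusted p = 0.0603). The SD of ATP6V0D2 was 0.33 in the osteoclast-rich and 2.72 in the osteoclast-poor group, and the fit used 1 variance for both. A wide spread that follows the score inside the osteoclast-poor group thus raises this p. Of the 3 other probesets of ATP6V0D2, 2 differed by 5.86 and 5.92 and passed it (adjusted p = 0.0450 and 0.0420), and a dim one differed by 3.17 (adjusted p = 0.0896). With 16 added to each signal before the log the difference was 5.04.

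ITGB3, the β3 chain of the vitronectin receptor with which osteoclasts grip bone, was 9.89, 7.94, 9.47, 8.92 and 8.82 in osteoclast-rich and 7.73, 7.37, 7.57, 6.69 and 5.33 in osteoclast-poor tumors. The groups did not overlap, but dog 204714 lay only just above the highest osteoclast-poor tumor, and the adjusted p was 0.139. Its partner ITGAV had means of 12.76 ± 0.34 and 11.88 ± 0.32 (adjusted p = 0.151). TYROBP, a signaling adaptor of the myeloid lineage that is needed for osteoclast formation, differed by 1.94 ± 0.53 (SE, adjusted p = 0.185) with overlapping groups. SIGLEC15, a sialic acid receptor that pairs with such adaptors, was near background, with means of 6.14 ± 0.55 and 3.81 ± 2.42 (adjusted p = 0.395). Its difference of 2.33 rested in part on dog 208513, at -0.51, since it was 1.26 without that dog. The receptors TNFRSF11A (RANK) and CALCR (calcitonin receptor) were near background in each group, with means of 4.34 and 4.17 for TNFRSF11A and 2.31 and 2.25 for CALCR, so neither could be compared. OSCAR, DCSTAMP and OCSTAMP were not analysed here, since no probeset carried these symbols.

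Of the 6 measured proteases and matrix uptake genes beside the scoring gene CTSK, MMP9 passed the test. Of all genes 0.404% did so on the higher side. MMP9, a gelatinase made in quantity by osteoclasts and also by neutrophils and macrophages, was 13.47, 13.39, 13.37, 13.35 and 13.01 in osteoclast-rich and 11.73, 9.52, 7.54, 7.27 and 9.06 in osteoclast-poor tumors. The osteoclast-rich values lay within 0.5 of one another while the osteoclast-poor values covered more than 4 on the log2 scale. MMP9 rose by 4.29 ± 0.73 (adjusted p = 0.047), a call that 9 of 10 runs without 1 tumor lost. Of 2 other probesets of MMP9, both near background, 1 differed by 0.07 and 1 by 7.02 (adjusted p = 0.955 and 0.108). The lysosomal cathepsins CTSZ and CTSB, which many cell types make, had adjusted p-values of 0.205 and 0.361 and overlapping groups. The median over the 6 genes was 0.57.

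Among 16 measured transcription and signaling genes of the osteoclast, 8 were higher at an unadjusted p below 0.05, 4 had groups apart, and 2 passed the adjusted test. These shares over all genes were 6.33%, 2.11% and 0.404% on the higher side. RAC2, a signaling protein of blood cells that shapes the osteoclast's actin ring, was 10.62, 10.72, 10.91, 9.90 and 11.03 in osteoclast-rich and 8.58, 8.09, 6.81, 6.79 and 6.99 in osteoclast-poor tumors, and rose by 3.18 ± 0.40 (adjusted p = 0.0164). JDP2, an AP-1 family factor acting in osteoclast differentiation, rose by 2.04 ± 0.29 (adjusted p = 0.0245) and was near background. RAC2 lost its call without dog 180119 or dog 208911, and JDP2 in 6 of 10 runs.

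MITF, the factor that drives ACP5 and CTSK themselves, was 10.21, 10.59, 10.27, 10.58 and 10.50 in osteoclast-rich and 8.65, 8.95, 8.76, 8.89 and 6.76 in osteoclast-poor tumors. The groups were far apart, and dog 208513 stood below the other 4 osteoclast-poor tumors. Its difference of 2.03 ± 0.40 had an adjusted p of 0.0744, and 1 of 5 other probesets of MITF, which differed by 2.04, passed with an adjusted p of 0.0420. The remaining ones differed by 1.90 and 1.86 (adjusted p = 0.0876 and 0.117) and, where dim, by 0.27 and -0.54 (adjusted p = 0.829 and 0.557). SPI1 (PU.1) and the kinases SYK and BTK, which act throughout the myeloid lineage, differed by 2.63, 2.44 and 2.27, with adjusted p-values of 0.0808, 0.143 and 0.114, and SPI1 and SYK were near background. NFATC1, the master factor of osteoclast formation, was near background (means 2.66 ± 0.89 and 1.29 ± 2.22) and overlapped.

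**Figure D3:**
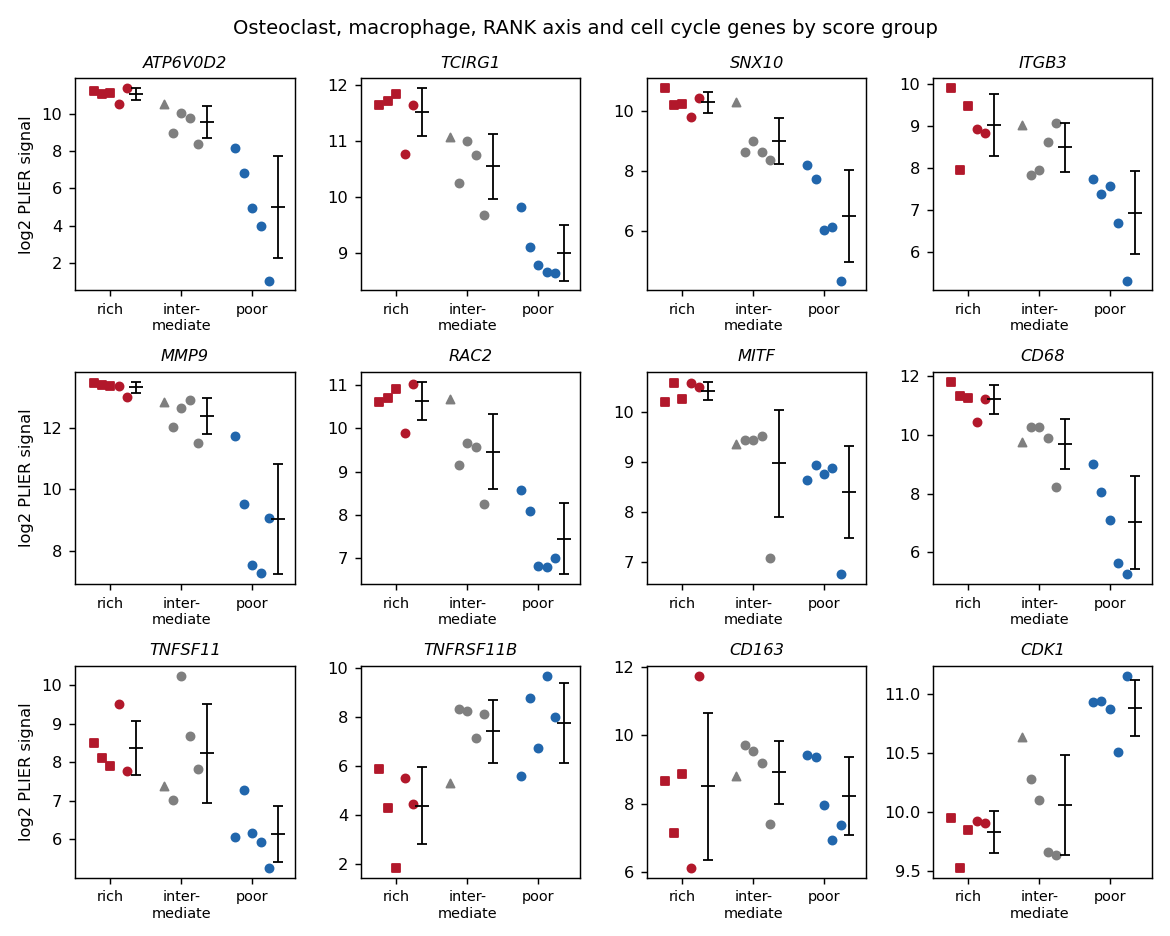
Log2 PLIER signal of 12 genes in the osteoclast-rich (red), intermediate (gray) and osteoclast-poor (blue) tumors, 5 each, in order of the score from left to right within a group, with squares for giant cell tumors, a triangle for the poorly differentiated tumor, and mean and SD in black. ATP6V0D2 steps down with the score inside the osteoclast-poor group, TNFRSF11B runs the other way from TNFSF11, and CD163 overlaps widely.

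The RANK axis sets osteoclast formation: TNFSF11 encodes RANKL, the inducing ligand, and TNFRSF11B encodes osteoprotegerin, the soluble decoy that blocks it. TNFSF11 was 8.51, 8.12, 7.92, 9.51 and 7.77 in osteoclast-rich and 6.07, 7.28, 6.16, 5.93 and 5.26 in osteoclast-poor tumors. TNFRSF11B was 5.86, 4.28, 1.81, 5.48 and 4.43 in osteoclast-rich and 5.58, 8.78, 6.73, 9.69 and 8.00 in osteoclast-poor tumors. TNFRSF11B was near background by its mean over 15 tumors, with all 5 osteoclast-rich tumors below the reporter level. With 16 added to each signal before the log its difference was -2.56. The TNFSF11 groups did not overlap, and those of TNFRSF11B overlapped through dogs 208911 and 212759 alone. Neither passed the adjusted test: the difference was 2.22 ± 0.42 for TNFSF11 (adjusted p = 0.066) and -3.39 ± 0.92 for TNFRSF11B (adjusted p = 0.177). With sex as a covariate the 2 differences were 2.73 and -3.69.

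Among the intermediate tumors TNFSF11 ran from 7.01 to 10.25, the highest of all 15 tumors, and TNFRSF11B from 5.28 to 8.33. Their TNFRSF11B mean of 7.42 was nearer to the osteoclast-poor mean (7.76) than to the osteoclast-rich mean (4.37). IL34 and CSF1, the 2 ligands of the CSF1 receptor, were near background and differed by 1.21 ± 0.22 (adjusted p = 0.0603) and 1.52 ± 0.51 (adjusted p = 0.271). CCL3, a chemokine that recruits precursors, differed by 1.33 ± 0.51 (adjusted p = 0.328). These 3, TNFSF11 and TNFRSF11B were the members of the 15 measured that reached an unadjusted p below 0.05. Of them 4 were higher and 1 lower, against 6.33% and 6.7% of all genes. IL34, CSF1 and CCL3 were chosen after their values were seen. The median of the list was 0.51. Among 11 measured factors by which osteoclasts signal to osteoblasts, SEMA4D, which restrains bone formation, alone reached an unadjusted p below 0.05 (difference 0.69 ± 0.17, adjusted p = 0.134).

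Genes of the proton pump and the lysosome that are used by all cells were also higher. Of 15 measured vacuolar ATPase subunits 13 were higher and 2 lower, with a median difference of 0.86. At an unadjusted p below 0.05, 11 were higher and none lower, against 6.33% and 6.7% of all genes. The list shares ATP6V1B2 and ATP6AP1, among others, with acid secretion, so it is not separate from the genes counted there. ATP6V1D, a subunit of the rotor shaft, rose by 0.89 ± 0.15 (adjusted p = 0.044), a smaller step than those of ATP6V1B2 and ATP6AP1. ATP6V1H, a regulatory subunit, differed by 1.49 ± 0.29 (adjusted p = 0.0669). Of 23 measured lysosomal genes 22 were higher, 13 of them at an unadjusted p below 0.05, with a median of 0.77. MAN2B1, lysosomal α-mannosidase, rose by 1.50 ± 0.25 (adjusted p = 0.044) and 3 hydrolases, GUSB, CTSD and ASAH1, differed by 1.34, 1.34 and 1.61 with adjusted p-values of 0.084, 0.0954 and 0.184. The calls of ATP6V1D and MAN2B1 were lost in 10 and 9 of 10 runs without 1 tumor.

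Other lysosome genes were among the 15 higher genes with the smallest p above the reporter level. NAGLU, a heparan sulfate hydrolase, rose by 2.19 ± 0.24 (adjusted p = 0.00988), PLA2G15, the lysosomal phospholipase A2, by 2.21 ± 0.26 (adjusted p = 0.0123), and GNPTAB, whose product makes the mannose 6-phosphate tag that routes enzymes to the lysosome, by 1.94 ± 0.25 (adjusted p = 0.0172). GPR137B, a lysosomal membrane protein, rose by 2.25 ± 0.29 (adjusted p = 0.0177) and RAB38, a GTPase of lysosome-related organelles, by 2.94 ± 0.37 (adjusted p = 0.0172). The osteoclast-poor tumors were below the reporter level except dog 208756 in GPR137B (6.82) and dog 212759 in RAB38 (7.39). The sizes of these differences are therefore uncertain. In GNPTAB the osteoclast-rich values were 11.19, 10.58, 10.82, 9.93 and 10.77 and the osteoclast-poor values 9.10, 8.69, 8.61, 8.79 and 8.39.

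The rest of the 15 genes had other roles. F2R, the thrombin receptor PAR1, was 8.61, 7.92, 8.03, 8.24 and 7.92 in osteoclast-rich and 5.37, 5.38, 5.52, 6.28 and 5.05 in osteoclast-poor tumors, and rose by 2.62 ± 0.25 on the log2 scale (adjusted p = 0.00784). The intermediate tumors were at 7.34 to 8.12 in F2R, so all 5 lay with the osteoclast-rich group or just under it. ABCC5, an efflux pump for organic anions and nucleotide analogs, rose by 1.69 ± 0.15 and NR1H3, the oxysterol receptor LXRα of macrophages and other cells, by 2.69 ± 0.26 (adjusted p = 0.00784 each). BIRC3, an inhibitor of apoptosis induced by NF-κB, rose by 3.42 ± 0.35 (adjusted p = 0.00988) and SLC6A8, the creatine transporter, by 2.67 ± 0.32 (adjusted p = 0.0126). PLVAP, a protein of endothelial diaphragms, rose by 1.36 ± 0.17 (adjusted p = 0.0172) and CMTM6, a membrane protein that stabilizes PD-L1, by 1.41 ± 0.19 (adjusted p = 0.0216). All 5 osteoclast-poor tumors were below the reporter level in F2R, ABCC5, BIRC3, NAGLU and PLVAP, which passed it through the other tumors, so the sizes of these differences are uncertain. Probesets disagreed for some of the genes: the other NR1H3 probeset differed by 0.30 (adjusted p = 0.707), and 1 of 3 others of BIRC3 by 0.28 (adjusted p = 0.592). For SLC6A8 a probeset above the reporter level differed by 0.05 (adjusted p = 0.949) and another by 1.27 (adjusted p = 0.0172). For GNPTAB a dim probeset differed by 0.56 (adjusted p = 0.65) and another by 1.97 (adjusted p = 0.0245). By the brightest probeset F2R, ABCC5, NR1H3, BIRC3, NAGLU, PLA2G15 and SLC6A8 kept an adjusted p below 0.05 in each run without 1 tumor. GNPTAB and PLVAP each lost it without dog 180119 or dog 193231, RAB38 without 180119 or 208911, GPR137B without 180119, and CMTM6 in 4 runs.

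The 5 tumors of intermediate score took no part in that fit. For 69 of the 73 genes their mean lay between the means of the other groups, and for 59 of the 73 it was nearer to the osteoclast-rich mean. The 73 genes were picked for groups far apart, and the rule places these tumors between the groups. Their mean score (12.33) was also nearer to the osteoclast-rich (13.04) than to the osteoclast-poor mean (8.97). Both counts are therefore no separate support, and no share over all genes is given beside them. The poorly differentiated tumor of dog 188084, with the highest intermediate score, was at 10.30 in SNX10 and 7.62 in SLC9B2, above 3 and all 5 of the osteoclast-rich tumors in these genes. Dog 173175, with the lowest intermediate score, was at 8.38 in ATP6V0D2 and 9.67 in TCIRG1, next to the osteoclast-poor tumor of dog 212759.

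Macrophages, the other large cell population of the monocyte lineage in a tumor, share many genes with osteoclasts. Of 25 measured macrophage genes 5 were higher and 1 lower at an unadjusted p below 0.05, against 6.33% and 6.7% of all genes. CD68 passed the adjusted test, and the median difference was 0.29. CD68, a lysosomal glycoprotein abundant in both cell types, was 11.82, 11.35, 11.27, 10.45 and 11.24 in osteoclast-rich and 9.02, 8.07, 7.12, 5.63 and 5.25 in osteoclast-poor tumors, and rose by 4.21 ± 0.68 (adjusted p = 0.04, lost in 9 of 10 runs without 1 tumor). CD163, the hemoglobin scavenger receptor of macrophages, was 8.66, 7.13, 8.86, 6.12 and 11.74 in osteoclast-rich and 9.41, 9.37, 7.97, 6.92 and 7.38 in osteoclast-poor tumors. Dogs 180119 and 190030 were the highest and the lowest of all 10 in CD163, and both were osteoclast-rich. The difference in CD163 was 0.29 ± 0.98 (adjusted p = 0.941), and turned to -0.52 without dog 180119.

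CD14, the endotoxin co-receptor of monocytes, differed by 2.03 ± 0.51 (adjusted p = 0.146), CSF1R, the CSF1 receptor of the whole lineage, by 2.09 ± 0.58 (adjusted p = 0.189), LAPTM5, a lysosomal protein of blood cells, by 2.19 ± 0.48 (adjusted p = 0.103) and PTPRC, the leukocyte antigen CD45, by 1.30 ± 0.45 (adjusted p = 0.283). MERTK, the receptor with which macrophages take up dead cells, was the 1 lower member, at -0.71 ± 0.23 (adjusted p = 0.251). The mean over the 25 macrophage genes was 6.64 to 10.01 in osteoclast-rich and 6.83 to 8.33 in osteoclast-poor tumors, so the ranges overlapped, while the mean over the 15 acid secretion genes was 9.56 to 10.15 and 7.04 to 8.37. Of the 25 macrophage genes 19 had a mean over 15 tumors above the reporter level, and the part of macrophages in the differences was not tested. Of 9 measured genes of antigen presentation on MHC class II, IFI30, a lysosomal thiol reductase, differed by 1.65 ± 0.34 (adjusted p = 0.0859), and the median of the list was -0.11.

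**Figure D4:**
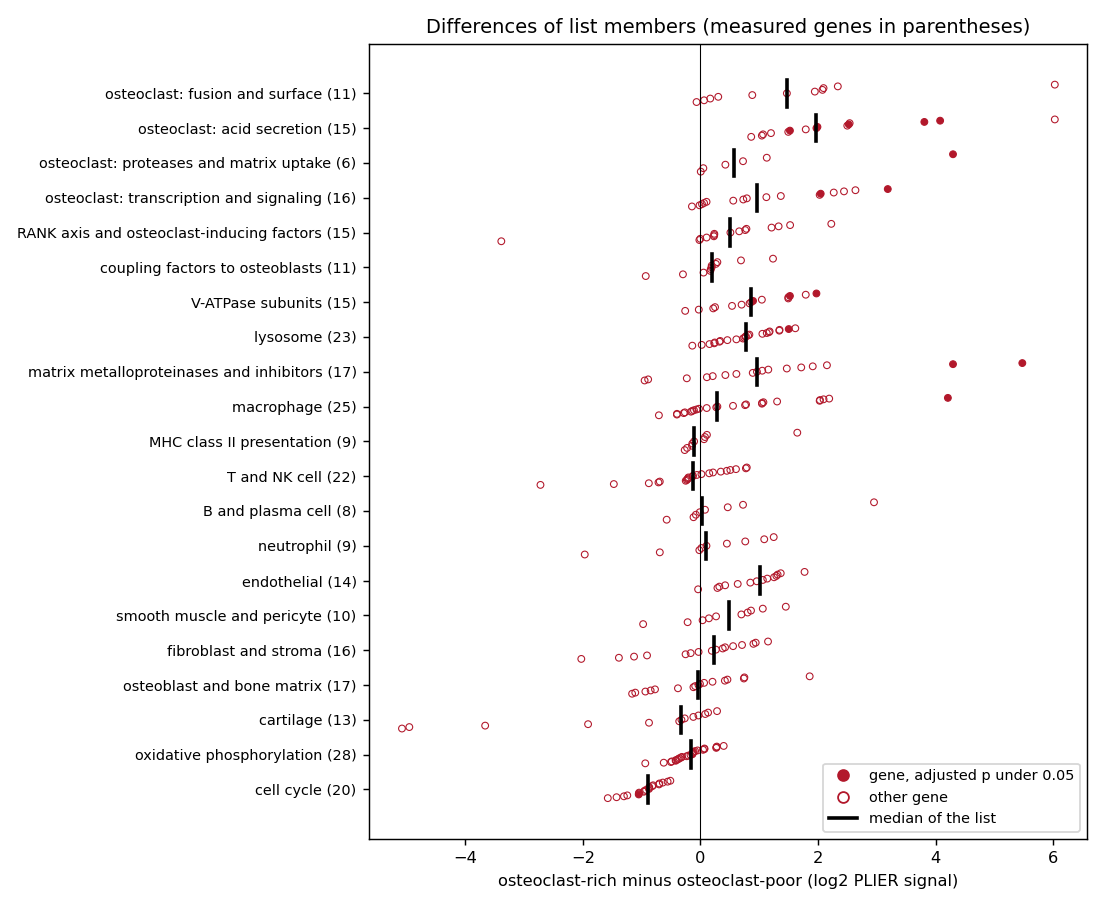
Difference between osteoclast-rich and osteoclast-poor tumors (log2 PLIER signal, 5 tumors a group) for each measured member of 21 gene lists, filled where the adjusted p was below 0.05, with the median of the list as a bar. The acid secretion list has no member at or below 0 and the cell cycle list none at or above it.

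Members of the endothelial list, which does not hold PLVAP, were mostly higher in osteoclast-rich tumors, without a call. Of 14 measured endothelial genes 13 were higher, 8 of them at an unadjusted p below 0.05 (6.33% of all genes). None passed the adjusted test, and the median difference was 1.01. PECAM1, an adhesion molecule of endothelium and leukocytes, had means of 9.97 ± 0.94 and 8.20 ± 0.69 (adjusted p = 0.18), KDR, the main VEGF receptor, 9.93 ± 0.74 and 8.79 ± 0.27 (adjusted p = 0.214), TIE1, a receptor kinase of endothelium, 7.55 ± 0.79 and 6.18 ± 0.77 (adjusted p = 0.271) and FLT1, a second VEGF receptor, 7.48 ± 0.88 and 6.17 ± 0.62 (adjusted p = 0.277). The giant cell tumor of dog 208911 was the highest of all 10 in each of these 4 genes. The mean over the 14 genes was 7.09 to 8.62 in osteoclast-rich and 6.31 to 7.13 in osteoclast-poor tumors. Of 10 smooth muscle and pericyte genes, TAGLN, PDGFRB and ACTA2 were higher at an unadjusted p below 0.05 together with 1 dim gene, with a list median of 0.48, and their adjusted p-values were 0.271, 0.288 and 0.418. The part of vessel and pericyte RNA in the differences above was not tested.

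In all 2 matrix metalloproteinases passed the test, MMP9 (above) and MMP1. MMP1, the interstitial collagenase, was 10.90, 10.47, 8.82, 10.96 and 8.26 in osteoclast-rich and 6.54, 4.12, 3.20, 2.16 and 6.03 in osteoclast-poor tumors, and rose by 5.47 ± 0.91 (adjusted p = 0.0433, lost in 9 of 10 runs without 1 tumor). All 5 osteoclast-poor tumors were below the reporter level in MMP1, and with 16 added to each signal the difference was 4.48. TIMP2, an inhibitor of these enzymes, differed by 1.05 ± 0.22 (adjusted p = 0.0859), and MMP13, the collagenase of bone-forming cells and cartilage, by 2.15 ± 0.88 (adjusted p = 0.369) with overlapping groups. Of 17 measured members, 9 were higher at an unadjusted p below 0.05 and none lower, against 6.33% and 6.7% of all genes. CCR1, a chemokine receptor of monocytes and osteoclasts, was 8.45, 7.60, 9.07, 7.37 and 9.08 in osteoclast-rich and 6.53, 5.67, 4.88, 5.04 and 3.86 in osteoclast-poor tumors, and rose by 3.12 ± 0.52 (adjusted p = 0.0452, lost in 9 of 10 runs), with all 5 osteoclast-poor tumors below the reporter level. It was the 1 call among 20 chemokines and receptors.

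Genes of cell division were lower in osteoclast-rich tumors. All 20 measured cell cycle genes were lower, 14 of them at an unadjusted p below 0.05 (6.7% of all genes). Their median difference was -0.90, with a range of -1.58 to -0.51. CDK1 passed the adjusted test, as 0.0794% of all genes did on the lower side. CDK1, the kinase that starts mitosis, was 9.95, 9.52, 9.85, 9.92 and 9.90 in osteoclast-rich and 10.93, 10.94, 10.87, 10.50 and 11.15 in osteoclast-poor tumors. The groups did not overlap, and CDK1 fell by 1.05 on the log2 scale (SE 0.17, adjusted p = 0.0395, lost in 9 of 10 runs without 1 tumor). PLK1, a kinase of the mitotic spindle, differed by -1.58 ± 0.30 (adjusted p = 0.0631), AURKB, the kinase of chromosome segregation, by -1.43 ± 0.40 (adjusted p = 0.191) and NUSAP1, a spindle protein, by -0.70 ± 0.20 (adjusted p = 0.198). The mean over the 20 genes was 8.06 to 9.34 in osteoclast-rich and 9.31 to 9.97 in osteoclast-poor tumors, where the giant cell tumor of dog 153599 was just above the osteoclast-poor tumor of dog 208756. Without the giant cell tumors PLK1 differed by -2.03 and CDK1 by -0.97.

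Among the 15 lower genes with the smallest p above the reporter level, 6 passed the adjusted test. TNFAIP8L3, a lipid transfer protein of the TNFAIP8 family, was 8.21, 6.80, 7.22, 6.24 and 8.29 in osteoclast-rich and 10.86, 10.53, 10.52, 10.56 and 11.01 in osteoclast-poor tumors, and fell by 3.34 on the log2 scale (SE 0.39, adjusted p = 0.0123). The 5 osteoclast-poor tumors lay within 0.5 of each other there, in contrast with their spread in the osteoclast genes, and the call held with any 1 tumor left out. CEP72, a centrosomal protein, was 5.43, 4.67, 7.11, 4.92 and 5.16 in osteoclast-rich and 7.95, 9.57, 9.12, 9.12 and 10.29 in osteoclast-poor tumors, and fell by 3.75 (SE 0.53, adjusted p = 0.0245, lost in 7 of 10 runs). LOC485338 fell by 1.75 (adjusted p = 0.0287), DPY19L1, a membrane glycosyltransferase, by 0.98 (adjusted p = 0.047) and CBX5, the heterochromatin protein HP1α, by 1.33 (adjusted p = 0.049), and these calls were lost in 8, 10 and 10 runs.

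The other 8 of these 15, beside PLK1, had adjusted p-values from 0.0534 to 0.066 and groups that did not overlap. SPDL1, TRIP13, NEK2 and PTTG1, which act in the spindle checkpoint or in chromosome segregation, differed by -1.15, -1.29, -1.46 and -1.66. BMI1, a Polycomb protein, differed by -1.19, POLR2C, an RNA polymerase II subunit, by -0.86, FTO, an RNA demethylase, by -1.02 and COPZ1, a subunit of the vesicle coat COPI, by -1.27. None of these 4 is a cell cycle gene by its best known role.

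Genes of the bone-forming cells, the lineage of the tumor itself, had no common direction. Of 17 measured osteoblast and bone matrix genes 7 were higher and 10 lower, and the median difference was -0.03. SPP1, osteopontin, a matrix protein that osteoblasts, macrophages and osteoclasts all make, was 13.11, 13.01, 13.23, 12.68 and 12.70 in osteoclast-rich and 12.13, 12.35, 9.91, 10.14 and 10.93 in osteoclast-poor tumors (difference 1.86 ± 0.47, adjusted p = 0.153). RUNX2 and DLX5, factors of osteoblast identity, differed by -1.11 ± 0.37 and -0.85 ± 0.27 (adjusted p = 0.263 and 0.251). SPP1, RUNX2 and DLX5 were the members with an unadjusted p below 0.05. With sex as a covariate RUNX2 differed by -0.50 and DLX5 by -0.46.

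The lists of other cell types held no call. Over all genes 6.33% were higher and 6.7% lower at an unadjusted p below 0.05. A single member at that level is therefore not read as a result about its list. The measured members numbered 16 for fibroblasts, 13 each for cartilage and skeletal muscle, 8 for adipocytes, 4 for erythroid cells, 7 for dendritic cells, 6 for mast cells, 9 for neutrophils, 22 for T and NK cells and 8 for the B lineage. Of 22 T and NK cell genes 1 was higher (CD4, also on monocytes) and 1 lower (CD3G) at an unadjusted p below 0.05, with a median of -0.13 and only 3 members above the reporter level. Of the cartilage genes 10 were lower, 1 of them at an unadjusted p below 0.05, with a median of -0.32 and a list mean of 3.05 to 6.12 in osteoclast-rich and 4.50 to 6.86 in osteoclast-poor tumors. Of the fibroblast genes FN1 and S100A4 were higher and LOX lower by the same measure. Of 28 measured genes of oxidative phosphorylation none was higher and 4, NDUFB5, NDUFS4, SDHB and COX4I1, were lower at an unadjusted p below 0.05 (differences of -0.94, -0.62, -0.50 and -0.42), with a list median of -0.15. Of 23 genes of glycolysis and hypoxia PFKP, and of 11 genes of iron handling CYBRD1, was higher by that measure, and of 19 interferon response genes, 13 of them lower with a list median of -0.41, USP18 was lower by it (-1.64 ± 0.57, adjusted p = 0.282).

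**Figure D5:**
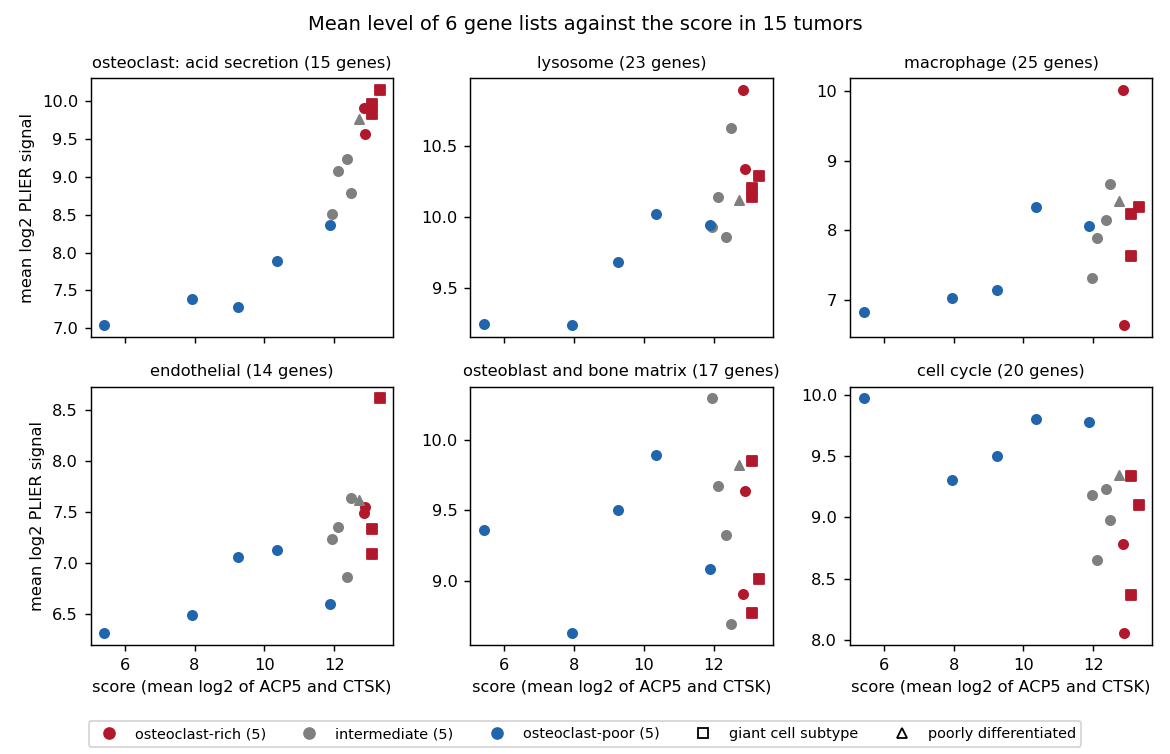
Mean log2 PLIER signal over the measured members of 6 gene lists (y axes) against the score (x axis) in the 15 tumors, colored by group, with squares for giant cell tumors and a triangle for the poorly differentiated tumor. The acid secretion mean runs from 7.04 in the tumor of lowest score to 10.15 in that of the highest, the macrophage mean of the osteoclast-rich tumors spans 6.64 to 10.01, and 4 of the 5 osteoclast-poor tumors have the highest cell cycle means.

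Likeness to the score was also read over all 15 tumors, as the Pearson correlation of each gene above the reporter level with the score, without a test since the score comes from the same arrays and 1 tumor, dog 208513, lies far out. ATP6V0D2 was most like it (r = 0.98), followed by SNX10 (0.95), SLC37A2 (0.94), CD68 (0.94), RAB38 (0.92), CSTB (0.91), ADPRH (0.90), ITGA2 (0.89), CCR1 (0.89) and ARPC1B (0.89). The limma group comparison ordered genes otherwise: ABCC5, F2R and NR1H3 (adjusted p = 0.00784 each) had r of 0.78, 0.80 and 0.72. SLC37A2, a sugar phosphate exchanger abundant in osteoclasts and macrophages, was 9.96, 9.65, 10.10, 9.03 and 10.45 in osteoclast-rich and 8.06, 7.13, 5.59, 6.11 and 4.59 in osteoclast-poor tumors, and rose by 3.54 ± 0.59 (adjusted p = 0.0448, lost in 9 of 10 runs). Of its 2 other probesets 1 differed by 2.95 (adjusted p = 0.0457) and a dim one by 0.18 (adjusted p = 0.767). ITGA2, the α2 chain of a collagen receptor, differed by 2.95 ± 0.52 (adjusted p = 0.0515). CSTB, an inhibitor of lysosomal cathepsins, had means of 13.04 ± 0.13 and 11.94 ± 0.56 (adjusted p = 0.125). ADPRH and ARPC1B, a hydrolase of ADP-ribosyl arginine and a subunit of the actin-branching Arp2/3 complex, had adjusted p-values of 0.14 and 0.29. Other probesets of ADPRH, both dim, differed by -0.17 and 0.56 (adjusted p = 0.83 and 0.434). Another ARPC1B probeset, above the reporter level, differed by 0.36 (adjusted p = 0.679).

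The differences were compared between the cohorts by an interaction term. Of 42860 probesets 3 passed at an adjusted p below 0.05 and 2035 at an unadjusted p below 0.05, and no gene named here was among the 3. ATP6V0D2 differed by 4.78 within the DFI < 100 cohort and by 7.89 within the DFI > 300 cohort (adjusted p of the interaction 0.947), TCIRG1 by 2.54 and 2.49 (0.996), and CDK1 by -1.02 and -1.10 (0.987). With 3 against 3 and 2 against 2 tumors the interaction was measured with little precision.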

How the data were processed

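Total RNA of 15 tumors, 1 per dog, was hybridised by the authors to Affymetrix Canine 2.0 arrays in 2 batches. The deposited intensity values are PLIER signals on a linear scale, made in Affymetrix Expression Console, with versions and the normalization before PLIER not given in the sources used here. The arrays' number limits the precision: the median signal was 46.6 to 54.7 per array, and no array has a read depth. The file holds 43035 probesets, of which 42860 entered the tests and 175 were array controls. The platform annotation gave 1 symbol for 29254 probesets, several for 439 and none for 13167. Where a gene had several single-symbol probesets the brightest over 15 arrays was used.

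Signals were taken to log2 with no offset, and osteoclast-rich and osteoclast-poor tumors were compared with limma (3.58.1, R 4.3.3) over the 10 arrays without covariates, with Benjamini-Hochberg adjustment over all 42860 probesets. GEO's labels gave the cohorts, ages and breeds. The score groups follow from ACP5 and CTSK, so p-values of genes that track these 2 cannot be read as those of labelled groups. Dogs were separate animals. The genes named were a set of osteoclast and RANK axis genes, the 15 higher and 15 lower genes with the smallest p above the reporter level, up to 4 members per other list with the smallest p above that level, CD68, CD163 and CD14, and the 10 genes most like the score, and SLC9B2, OSTM1, JDP2, SPI1, SYK, IL34, CSF1, CCL3, SEMA4D, MERTK, PTPRC, MMP13, LOX, S100A4, CD3G and CD4 were added after their values were seen. The members, the 30 gene lists and the tests were chosen with earlier results of these data known. Score and age were compared by exact permutation over dogs (Python 3.11.15). The settings varied were limma with trend and robust options, all 15 tumors, the score as a continuous term, an offset of 16, quantile normalization, bright probesets alone, cohort, RNA ratio or sex as a covariate, other group sizes, tumors left out, and the methods' t-test. Sex as a covariate and leaving out the giant cell tumors were chosen after seeing the data. No sequences are printed, since none were used here.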

Additional observations from a re-analysis of the deposited data

Results flagged for a closer look

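Single tumors stood apart from the other 4 of their group in 17 of 276 values tested, by Dixon's gap test at its 95% level, which chance alone passes in about 1 in 20 groups. Among osteoclast-rich tumors dog 190030 was low in TCIRG1 (10.76), NAGLU (7.79), ADPRH (7.17) and the mean of the oxidative phosphorylation list (10.26). Dog 180119 was low in MMP9 (13.01) and high in CMTM6 (11.19), PDGFRB (9.25) and the mean of the lysosome list (10.90). Dog 204714 was low in OSTM1 (7.44) and CDK1 (9.52), and dog 208911 in CALCR (1.50) and in the mean of the skeletal muscle list (4.82). Among osteoclast-poor tumors dog 208513 was low in SIGLEC15 (-0.51), MITF (6.76) and the mean of the erythroid list (4.34), and dog 212759 in the means of the B and plasma cell list (3.25) and the fibroblast list (8.96).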

How the results depend on the processing

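Counts of genes called are given as higher and lower, against 61 and 12 as reported. They were 121 and 35 with 3 groups over 15 tumors, 154 and 39 with the score as a continuous term, 110 and 43 with an offset of 16, 92 and 28 with probesets averaged within each gene, 94 and 34 with the adjustment over probesets above the reporter level alone, 30 and 4 with 4 tumors against 4, 10 and 2 with 7 against 7, 21 and 4 by the methods' t-test, 3 and 1 without Greyhounds, 0 and 1 with sex as a covariate and 0 and 4 without giant cell tumors, and 90 and 25 with limma's trend and robust options. Leaving out 1 tumor gave 13 to 60 higher and 2 to 10 lower. The cause of these changes was not tested. The median difference of the acid secretion list (1.97) was 1.43 with 7 against 7 and 1.32 with the continuous score, that of the proteases (0.57) was 1.13 above the reporter level, and that of transcription and signaling (0.95) was 0.50 with 7 against 7, 0.48 with the continuous score, 0.55 with the offset and 1.41 without giant cell tumors. CALCR (0.06) turned to -0.16 without Greyhounds and was -0.043 to 0.27 without 1 tumor. CD163 (0.29) turned to -0.22 with 4 against 4 and -0.12 with sex as a covariate, and was -0.52 to 0.88 without 1 tumor. The score difference between the cohorts (0.64) was -0.31 to 1.19 without 1 tumor. All 73 called genes kept their direction in every alternative that tested them. Where tumors were only left out the direction could not change, since the groups of all 73 did not overlap. No paired analysis was possible because each dog gave 1 tumor and the dog numbers are shared by no 2 samples. PLIER signals near background vary widely on the log2 scale, which limits the differences of dim genes.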
